A study of Homo sapiens with 12 samples.

Results

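The enzymes of serine synthesis and of the serine-dependent folate cycle were followed in 2 human pancreatic cancer cell lines by poly(A) RNA sequencing. The set holds 9 genes, PHGDH, PSAT1, PSPH, SHMT1, SHMT2, MTHFD1, MTHFD2, MTHFD1L and ALDH1L2, taken by gene name from the 58721 genes in the deposited tables. All 12 libraries came from Pa-Tu-8902 (labelled Tu8902) and MIA PaCa-2 cells that carried a doxycycline-inducible short hairpin RNA against GOT1, the cytosolic aspartate aminotransferase. Each line had 3 untreated libraries and 3 libraries from cells given doxycycline hyclate (dox) for 5 days, and all cells were grown in DMEM with fetal bovine serum. The labels give the dox dose as 1 µM/mL, where the methods write µg per mL. The labels do not say which of the hairpins against GOT1 was sequenced, or that replicates were separate cultures, so p-values measure the spread between these libraries, which may be technical. No dox-treated library with a scramble hairpin was analysed here, so the response to dox and the response to GOT1 loss cannot be told apart. The lines were stable, drug-selected populations, and each line stands for 1 tumour, so anything that differed between the cultures cannot be told apart from the line.

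Serine is made from the glycolytic intermediate 3-phosphoglycerate by PHGDH, a dehydrogenase that opens the pathway, PSAT1, an aminotransferase that takes its nitrogen from glutamate, and PSPH, a phosphatase that releases serine. Serine hydroxymethyltransferase then moves a carbon from serine to tetrahydrofolate and leaves glycine, in the cytosol (SHMT1) or in mitochondria (SHMT2). The mitochondrial enzymes MTHFD2 and MTHFD1L carry that carbon to formate, the cytosolic enzyme MTHFD1 uses formate or the serine-derived carbon for purine and thymidylate synthesis, and ALDH1L2 oxidizes mitochondrial formyl-tetrahydrofolate to CO2 with the production of NADPH.

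GOT1 transcript was checked first. Its level in CPM (normalized counts, scaled per library by its total and a trimmed-mean factor) was 121, 118 and 135 in untreated and 5.67, 4.91 and 4.37 in dox-treated Pa-Tu-8902 cells, a log2 fold change of -4.64 ± 0.09 (SE, edgeR quasi-likelihood test, adjusted p = 2.17e-10). In MIA PaCa-2 cells the level was 67.1, 75.8 and 70.4 CPM without and 2.24, 2.40 and 3.08 CPM with dox, a log2 fold change of -4.76 ± 0.11 (adjusted p = 1.24e-10). The difference followed the labels in every library. Gene totals ran from 26226537 to 43406137 counts, and the level that 3 counts would give, used as the detection floor, ran from 0.0705 to 0.111 CPM. Untreated MIA PaCa-2 replicate 2 stood apart from its group members, with chi-square statistics of 25.5 and 27.3 over their degrees of freedom where the other 2 had 6.40. Dox-treated Pa-Tu-8902 replicates 1 and 2 differed by 20.6 on the same measure, against 7.21 and 8.09 for the other pairs. Mitochondrially encoded genes took 1.61, 0.874 and 1.25% of the counts in dox-treated Pa-Tu-8902 libraries and 0.714 to 0.934% in untreated ones. Epithelial markers summed to between 9290 and 10376 TPM (RSEM's abundance unit, scaled by transcript length and library) in untreated Pa-Tu-8902 cells and to between 2727 and 2993 TPM in untreated MIA PaCa-2 cells. The epithelial adhesion genes CDH1 and EPCAM, at 178 ± 5.22 and 624 ± 25.9 CPM (SD, n = 3) in untreated Pa-Tu-8902 cells, were at no more than 0.0332 and 0.180 CPM in untreated MIA PaCa-2 cells. Leukocyte and endothelial marker sums stayed at or below 1.14 TPM. The fibroblast list went from 3.76 to 6.31 TPM without dox to 17.7 to 21.3 TPM with dox in Pa-Tu-8902 cells, and from 192 to 248 TPM to 340 to 398 TPM in MIA PaCa-2 cells, with 4 of its 6 genes at 3 counts or fewer in every untreated library of either line. The part of these markers in the results below was not tested.

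Among the 9 genes, the largest differences between the lines were in PHGDH and PSAT1, the opening steps of serine synthesis. PHGDH (chr1:119648411-119744218, plus strand, GRCh38) had 4804, 4737 and 4843 counts in untreated MIA PaCa-2 libraries and 0, 0 and 1 in untreated Pa-Tu-8902 libraries. The 3 MIA PaCa-2 values correspond to 144, 157 and 154 CPM, and the Pa-Tu-8902 values lie under the floor in all 3 libraries, so PHGDH was at least 1331-fold lower in Pa-Tu-8902 cells (lowest MIA PaCa-2 library over the highest floor per library). With dox, PHGDH had 2 counts in each of the 3 Pa-Tu-8902 libraries, again under the floor, and 1846, 1790 and 2361 counts in MIA PaCa-2 libraries, a difference of at least 692-fold.

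PSAT1 (chr9:78297125-78330093, plus strand) followed the same pattern between the lines. It had 5428, 4868 and 5012 counts (163, 162 and 160 CPM) in untreated MIA PaCa-2 libraries and 4, 6 and 9 counts (0.144, 0.170 and 0.304 CPM) in untreated Pa-Tu-8902 libraries. The lowest MIA PaCa-2 library stood 527-fold above the highest Pa-Tu-8902 library, and the fitted log2 fold change (Pa-Tu-8902 minus MIA PaCa-2) was -9.61 ± 0.14 (SE, adjusted p = 2.35e-16). In dox-treated Pa-Tu-8902 libraries PSAT1 had 6, 0 and 4 counts. The gene was thus close to the floor in all 6 libraries of that line. PSAT1 passed the count filter at baseline only through MIA PaCa-2 libraries, so its adjusted p is not read as support.

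PSPH (chr7:56011051-56051604, minus strand), the last enzyme of the pathway, was present in both lines. Its level was 65.1, 65.4 and 70.5 CPM in untreated Pa-Tu-8902 and 47.6, 48.8 and 46.6 CPM in untreated MIA PaCa-2 libraries. These ranges did not overlap, and the log2 difference of 0.47 ± 0.07 (adjusted p = 1.62e-05) was below the 1.5-fold limit that a call required beside an adjusted p below 0.01. On the TPM scale, which is per transcript length, PHGDH, PSAT1 and PSPH together summed to between 60.8 and 62.7 TPM in untreated Pa-Tu-8902 cells, of which PSPH gave 60.6 to 62.5 TPM. The same sum was 256 to 304 TPM in untreated MIA PaCa-2 cells, where PHGDH gave 121 to 148, PSAT1 96.8 to 114 and PSPH 38.1 to 43.5 TPM.

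**Figure D1:**
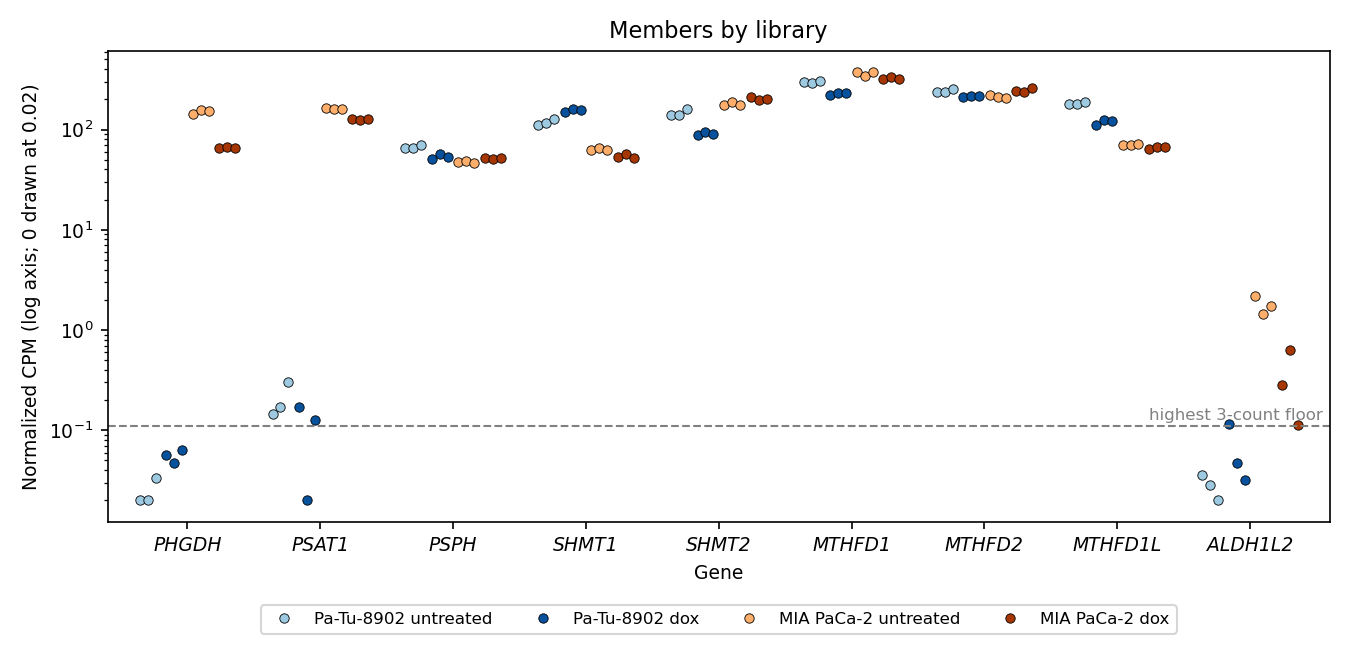
Normalized CPM of the 9 genes on a log axis, 1 point for each of the 12 libraries, coloured by line and treatment, with values of 0 drawn at 0.02 and the highest floor of 3 counts as a dashed line. PHGDH lies under that line in all 6 Pa-Tu-8902 libraries and between 65.7 and 157 CPM in all MIA PaCa-2 libraries, while PSPH, SHMT1, SHMT2, MTHFD1, MTHFD2 and MTHFD1L lie above 46 CPM throughout.

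Of the folate enzymes at baseline, SHMT1 and MTHFD1L were higher in Pa-Tu-8902 cells and ALDH1L2 was lower. SHMT1 (chr17:18327860-18363563, minus strand) was at 111, 116 and 126 CPM in Pa-Tu-8902 libraries and 62.0, 66.0 and 62.5 CPM in MIA PaCa-2 libraries, a log2 difference of 0.87 ± 0.07 (adjusted p = 2.05e-08). MTHFD1L (chr6:150865679-151101887, plus strand), the mitochondrial formyl-tetrahydrofolate synthetase, was at 178, 179 and 187 CPM against 70.5, 69.4 and 71.3 CPM, a log2 difference of 1.35 ± 0.06 (adjusted p = 6.11e-11). For both genes every Pa-Tu-8902 library lay above every MIA PaCa-2 library.

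ALDH1L2 (chr12:105019784-105107643, minus strand) was scarce in both lines, with 1, 1 and 0 counts in untreated Pa-Tu-8902 and 72, 44 and 54 counts in untreated MIA PaCa-2 libraries. The difference was at least 13.5-fold, on a level of at most 0.43 TPM in any library. The other 3 folate enzymes missed the fold limit. SHMT2 (chr12:57229573-57234935, plus strand) differed by -0.29 ± 0.07 on the log2 scale, with 141 to 162 CPM in Pa-Tu-8902 cells and 174 to 188 CPM in MIA PaCa-2 cells. For MTHFD1 (chr14:64388031-64463457, plus strand) the log2 difference was -0.30 ± 0.07 and for MTHFD2 (chr2:74186172-74217565, plus strand) it was 0.18 ± 0.07 (adjusted p = 0.0210). In all, 5 of the 9 genes were called between the untreated lines, 2 higher and 3 lower in Pa-Tu-8902 cells, in a comparison that called 58.1% of 15608 genes (28.8% higher, 29.2% lower). The 3 lower genes passed the count filter only through MIA PaCa-2 libraries, where they were high, so the number called is not read against that share. The groups did not overlap for any of the 9 and for 81.5% of all genes tested, which for the same reason is not compared either.

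The order of the levels per transcript length differed between the lines. In untreated Pa-Tu-8902 cells it ran from MTHFD2 (173 ± 4.20 TPM, SD, n = 3) and MTHFD1 (167 ± 9.47) through SHMT2 (143 ± 6.66), SHMT1 (91.3 ± 5.60) and MTHFD1L (84.7 ± 0.749) to PSPH (61.5 ± 1.01), with PSAT1, PHGDH and ALDH1L2 at or below 0.20 TPM. The libraries of MTHFD2 and MTHFD1 overlapped, as did those of SHMT1 and MTHFD1L by a margin of 85.3 against 85.4 TPM, and the other neighbours above 1 TPM did not. In untreated MIA PaCa-2 cells the order was MTHFD1 (193 ± 21.0 TPM), SHMT2 (170 ± 14.0), MTHFD2 (136 ± 9.94), PHGDH (135 ± 13.5), PSAT1 (108 ± 9.46), SHMT1 (51.2 ± 2.65), PSPH (41.6 ± 3.06) and MTHFD1L (32.3 ± 2.06). There the libraries of MTHFD1 and SHMT2 overlapped, as did those of MTHFD2 and PHGDH. The lowest value of every gene in this order came from replicate 2.

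Sequences around the transcript starts are shown for some of the genes that had a window in the RefSeq table (GRCh38.p14). It held 1 or more windows of 250 bases before to 50 bases after a start for 6 of the 9 genes. The 250 bases before the PSAT1 start (chr9:78296875-78297124, plus strand) are printed because this gene was near the floor in one line and at over 100 CPM in the other, with CpG dinucleotides in capitals:
PSAT1: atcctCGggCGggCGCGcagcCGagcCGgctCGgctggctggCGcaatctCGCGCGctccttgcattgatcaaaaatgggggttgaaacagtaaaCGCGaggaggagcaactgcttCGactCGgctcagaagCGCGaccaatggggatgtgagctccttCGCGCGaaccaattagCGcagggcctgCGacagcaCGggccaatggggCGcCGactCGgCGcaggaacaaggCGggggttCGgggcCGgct
This stretch holds 30 CpG, more than 87.6% of the 35116 windows in the table, whose median was 11, and 65.6% of its bases are G or C. The 250 bases before the PHGDH start of the RefSeq table (chr1:119711684-119711933, plus strand) hold 11 CpG, as many as the median window, and 51.2% G or C. They lie inside the PHGDH locus given above and overlap an annotated PHGDH exon, so they are not the bases before the first base of that locus. The pair of genes that were near the floor together in Pa-Tu-8902 cells thus differed in CpG content here.

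Letters of 3 motifs were searched on both strands of the windows. TGATGNAA, part of the C/EBP-ATF response element, was in 3.62% of all windows, CACGTG, the E-box, in 7.26%, and TGACNNNGC, the core of the antioxidant response element, in 13.3%. TGATGNAA was found in 3 of the 4 windows of MTHFD1L, all covering the same site, and in no window of PHGDH, PSAT1, SHMT1, MTHFD1 or MTHFD2. CACGTG was found in the MTHFD1 window and in 3 MTHFD1L windows, and TGACNNNGC in the MTHFD2 window on the opposite strand. Relative to the start, the MTHFD2 match lies after it, at bases 6 to 14, and the MTHFD1 match before it, at -15 to -10. The MTHFD1L TGATGNAA site lies at -129 to -122, -90 to -83 or 24 to 31, depending on the window. The matched letters are in capitals below, within chr6:150866346-150866375 for MTHFD1L, chr14:64388326-64388355 for MTHFD1 and chr2:74198611-74198639 for MTHFD2, all printed on the plus strand:
MTHFD1L: gccgccggctcTGATGCAAtcgcgccgggc
MTHFD1: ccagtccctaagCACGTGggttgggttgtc
MTHFD2: ttccctcccgGCGCAGTCAccggcgcggt
A match is a description of the letters in these windows and not a binding site.

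The response to dox was then compared within each line. In Pa-Tu-8902 cells SHMT2 and MTHFD1L, both mitochondrial, fell, and no tested gene was called higher at the 1.5-fold limit. SHMT2 was at 141, 141 and 162 CPM without and 89.1, 94.7 and 89.7 CPM with dox, a log2 fold change of -0.70 ± 0.06 (SE, edgeR quasi-likelihood test, adjusted p = 2.44e-06). MTHFD1L was at 178, 179 and 187 CPM without and 112, 124 and 121 CPM with dox, a log2 fold change of -0.60 ± 0.05 (adjusted p = 1.81e-06). Every dox-treated library lay below every untreated library for both genes. The MTHFD1L change of 1.52-fold was just past the 1.5-fold limit, and the call was lost without untreated replicate 3 (log2 fold change -0.58) or without dox-treated replicate 1 (-0.55), the library with the highest share of mitochondrially encoded counts, with the direction kept.

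The cytosolic enzymes of this line moved in opposite directions by less than the fold limit. SHMT1 was at 111, 116 and 126 CPM without and 150, 161 and 158 CPM with dox, a log2 fold change of 0.41 ± 0.05 (adjusted p = 7.33e-05). For MTHFD1 the levels were 301, 291 and 302 CPM and 222, 229 and 230 CPM, a log2 fold change of -0.39 ± 0.04 (adjusted p = 2.28e-05). Neither pair of groups overlapped.

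The remaining values in Pa-Tu-8902 cells were smaller. PSPH was at 65.1, 65.4 and 70.5 CPM without and 51.3, 57.0 and 52.9 CPM with dox (log2 fold change -0.32 ± 0.06, adjusted p = 6.75e-04), and MTHFD2, a dehydrogenase and cyclohydrolase, was at 237, 238 and 254 CPM and 212, 215 and 216 CPM (-0.18 ± 0.05, adjusted p = 0.00700). PHGDH, PSAT1 and ALDH1L2 had too few counts for a test in this line, with at most 9 counts in any library. Of the 6 genes tested, 0 were called higher and 2 lower, where 16.4% of the 14949 genes tested in this line were called (9.28% higher, 7.14% lower). With no fold limit, 1 was higher and 5 were lower at an adjusted p below 0.01, as were 5768 of the 14949 genes in either direction. The same numbers of the set were found at an unadjusted p below 0.05 in edgeR, and DESeq2 called 0 higher and 2 lower. No share over all genes is given for the unadjusted p or for DESeq2, here or in later paragraphs, so those counts are description only. All 6 of the set had groups that did not overlap, as had 58.1% of all genes tested. Their median log2 fold change was -0.35, beside 0.0014 over all genes.

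In MIA PaCa-2 cells the opening step of serine synthesis fell. PHGDH was at 144, 157 and 154 CPM without and 65.7, 66.2 and 66.1 CPM with dox, a log2 fold change of -1.20 ± 0.06 (adjusted p = 3.38e-08) or 2.30-fold. The 3 dox-treated libraries lay within 1 CPM of each other and far below the lowest untreated library. Leaving out any 1 library gave log2 fold changes from -1.24 to -1.19, and PHGDH was called lower under each of its 16 alternative settings.

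PSAT1 changed less than PHGDH in this line, from 163, 162 and 160 CPM to 128, 124 and 126 CPM, a log2 fold change of -0.35 ± 0.05 (adjusted p = 2.74e-04) that was within the fold limit. PSPH was at 47.6, 48.8 and 46.6 CPM without and 51.9, 50.6 and 51.8 CPM with dox, a log2 fold change of 0.11 ± 0.06 (adjusted p = 0.156). The pathway's genes therefore had unequal changes in the same libraries. Summed over all 3, serine synthesis transcripts were 256 to 304 TPM without and 183 to 197 TPM with dox, with the lowest untreated sum in replicate 2.

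ALDH1L2 was the other gene called lower in MIA PaCa-2 cells, at a low level. It had 72, 44 and 54 counts without and 8, 17 and 4 counts with dox, a log2 fold change of -2.44 ± 0.42 (adjusted p = 7.06e-04). It entered the test only through its untreated libraries, and with a minimum of 10 counts in every library it was not tested. Exonic bases are shared with opposite-strand genes, NOPCHAP1 with 145 bases and 490 to 805 counts and WASHC4 with 131 bases and 1070 to 2170 counts, and the strand setting of the counting is not given in the sources used here beyond default parameters. With dox, NOPCHAP1 (named C12orf45 in the deposited data) had a log2 fold change of 0.33 ± 0.08 (adjusted p = 0.00666), within the fold limit. WASHC4 was at 0.12 ± 0.08 (adjusted p = 0.279). The part of these genes in the ALDH1L2 counts was not tested.

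The other folate enzymes of MIA PaCa-2 cells were not called in either direction. SHMT2 was at 175, 188 and 174 CPM without and 210, 195 and 203 CPM with dox (log2 fold change 0.18 ± 0.06, adjusted p = 0.0282), and MTHFD2 was at 219, 213 and 205 CPM and 243, 237 and 258 CPM (0.22 ± 0.06, adjusted p = 0.0118). SHMT1 was at 62.0, 66.0 and 62.5 CPM and 53.2, 56.9 and 52.3 CPM (-0.23 ± 0.06, adjusted p = 0.0129), and MTHFD1 at 373, 346 and 372 CPM and 320, 332 and 316 CPM (-0.17 ± 0.06, adjusted p = 0.0399). In CPM the dox-treated libraries were above the untreated ones for SHMT2 and MTHFD2 and below them for SHMT1 and MTHFD1. In TPM the groups overlapped for SHMT1 (51.3, 48.5 and 53.8 against 52.8, 53.0 and 39.9) and for MTHFD1 (169 to 206 against 171 to 189), and over the alternatives SHMT1 ran from -0.27 to -0.086 (adjusted p up to 0.601) and MTHFD1 from -0.22 to -0.099 (adjusted p up to 0.423).

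MTHFD1L depended on the scale in this line. In CPM it was 70.5, 69.4 and 71.3 without and 64.3, 66.3 and 66.3 with dox, a log2 fold change of -0.10 ± 0.06 (adjusted p = 0.202), and in TPM it was 32.1, 30.3 and 34.4 without and 35.4, 35.1 and 34.4 with dox. With effective transcript lengths in the fit the value was 0.05 (adjusted p = 0.600), so no direction was given to this gene. Of the 9 genes tested in MIA PaCa-2 cells, 0 were called higher and 2 lower, in a comparison that called 12.1% of 14589 genes (4.36% higher, 7.71% lower). ALDH1L2, 1 of the 2, passed the count filter only through its untreated libraries, where it was high. The number called is therefore not read against that share. At an unadjusted p below 0.05, 2 were higher and 5 lower in edgeR, and DESeq2 called 0 higher and 2 lower, again without a share over all genes. Groups did not overlap in CPM for any of the 9, ALDH1L2 among them, and for 52.8% of all genes, which is likewise not compared. The median log2 fold change was -0.17, against -0.0089 over all genes.

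**Figure D2:**
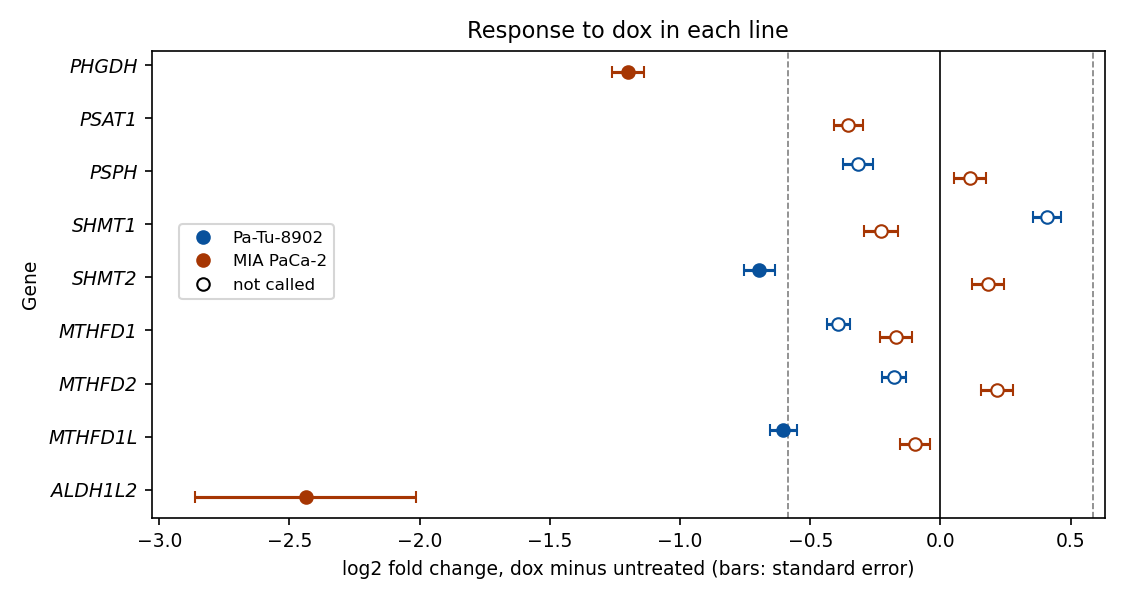
The log2 fold change of each gene, dox minus untreated, with its standard error as a bar, in Pa-Tu-8902 (blue) and MIA PaCa-2 (brown) cells, filled where called and with dashed lines at the 1.5-fold limit. SHMT2 is at -0.70 in Pa-Tu-8902 cells and 0.18 in MIA PaCa-2 cells, SHMT1 is at 0.41 and -0.23, and PHGDH, PSAT1 and ALDH1L2 have no Pa-Tu-8902 point because they were not tested there.

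The difference of the dox response between the lines was tested in 1 fit of all 12 libraries. Both hydroxymethyltransferases differed, in opposite directions. For SHMT2 the response in Pa-Tu-8902 minus that in MIA PaCa-2 cells was -0.88 ± 0.09 on the log2 scale (adjusted p = 3.94e-07), and for SHMT1 it was 0.64 ± 0.09 (adjusted p = 1.50e-05). The values without each library in turn ran from -0.91 to -0.79 and from 0.60 to 0.71. Exons of SHMT1 share 197 bases with SMCR8 on the opposite strand (1224 to 2332 counts), whose log2 fold changes with dox were -0.0032 ± 0.06 in Pa-Tu-8902 cells and 0.20 ± 0.08 in MIA PaCa-2 cells.

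MTHFD1L differed by -0.50 ± 0.08 (adjusted p = 7.16e-05), PSPH by -0.43 ± 0.09 (adjusted p = 7.96e-04) and MTHFD2 by -0.39 ± 0.08 (adjusted p = 8.32e-04), each within the fold limit. MTHFD1 differed by -0.22 ± 0.08 (adjusted p = 0.0434). None of these 4 differences was called. PHGDH, PSAT1 and ALDH1L2 entered this fit through MIA PaCa-2 cells only, so their values are not read. The 2 calls stand beside 10.5% called among 16544 genes.

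The balance between the compartments was taken as ratios of TPM within each library, which do not depend on the scaling between libraries. Such ratios do include the effective transcript lengths estimated for each library. SHMT2 over SHMT1 was 1.70, 1.41 and 1.62 in untreated and 0.774, 0.704 and 0.685 in dox-treated Pa-Tu-8902 libraries. In MIA PaCa-2 libraries the same ratio was 3.52, 3.17 and 3.25 without and 3.99, 3.70 and 4.74 with dox. With all annotated forms counted, the mitochondrial enzyme was thus the more abundant transcript in all untreated libraries. The cytosolic enzyme became the more abundant in dox-treated Pa-Tu-8902 libraries and in no MIA PaCa-2 library. With 3 libraries against 3, an exact permutation test cannot go below p = 0.1, so no test was made of a ratio.

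MTHFD2 over MTHFD1 was 1.02, 1.02 and 1.08 in untreated and 1.14, 1.24 and 1.12 in dox-treated Pa-Tu-8902 libraries, and 0.713, 0.745 and 0.661 and then 0.942, 0.845 and 0.999 in MIA PaCa-2 libraries. This ratio was higher with dox in both lines, without overlap. MTHFD1L over MTHFD1 was lower with dox in Pa-Tu-8902 libraries (0.488, 0.496 and 0.545, then 0.414, 0.477 and 0.431). In MIA PaCa-2 libraries its TPM value was higher with dox (0.157, 0.180 and 0.167, then 0.199, 0.186 and 0.201), and in neither line did the groups overlap. MTHFD1L changed direction with effective transcript lengths in MIA PaCa-2 cells, and TPM includes these lengths. No direction is therefore read from this ratio in that line. The transcripts of SHMT2, MTHFD2, MTHFD1L and ALDH1L2 summed to 397 to 404 TPM in untreated and 315 to 321 TPM in dox-treated Pa-Tu-8902 cells, and to 310 to 358 TPM and 391 to 413 TPM in MIA PaCa-2 cells. The sums of SHMT1 and MTHFD1 were 248 to 269 and 265 to 277 TPM in Pa-Tu-8902 cells and 217 to 260 and 211 to 242 TPM in MIA PaCa-2 cells, ranges that overlapped in both lines. In untreated MIA PaCa-2 cells the lowest mitochondrial sum and the lowest sum of SHMT1 and MTHFD1 came from replicate 2.

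**Figure D3:**
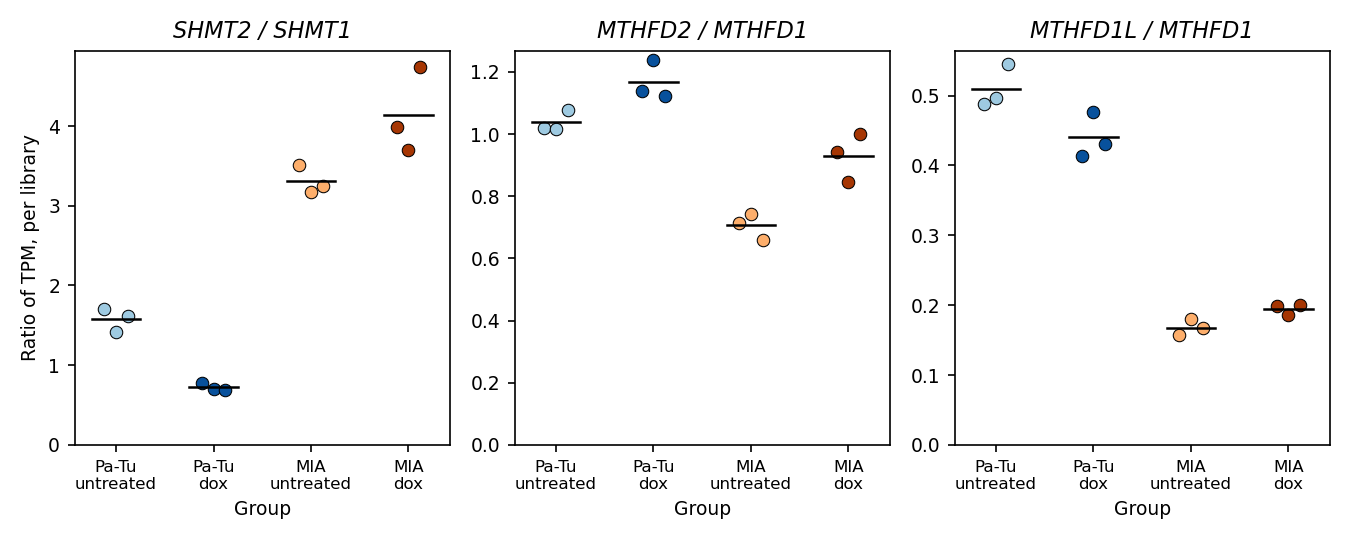
Ratios of TPM within each library for SHMT2 over SHMT1, MTHFD2 over MTHFD1 and MTHFD1L over MTHFD1, with 3 points and their mean as a line in each group and axes that start at 0. SHMT2 over SHMT1 runs from 0.685 to 0.774 in dox-treated Pa-Tu-8902 cells and from 3.70 to 4.74 in dox-treated MIA PaCa-2 cells.

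The deposited transcript estimates were used to see which annotated forms carried each gene. PSAT1 was nearly all PSAT1-202 (94.1 to 98.8% of its TPM in MIA PaCa-2 cells) and MTHFD1 mostly MTHFD1-201 (68.8 to 78.6% over all groups). PHGDH in MIA PaCa-2 cells was divided mainly over PHGDH-208 (21.3 to 38.7%), PHGDH-202 (19.0 to 27.9%) and the noncoding form PHGDH-230 (17.1 to 24.3%). The retained-intron form PHGDH-207 had 6.03 to 14.2% without and 0 to 8.43% with dox. The shares of each form overlapped between untreated and dox-treated libraries. The fall of PHGDH was seen in each of these forms, for instance from 29.4 to 37.9 TPM down to 10.9 to 16.5 TPM for PHGDH-202.

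SHMT1-201 made up 59.3 to 64.1% of SHMT1 in untreated Pa-Tu-8902 cells and 43.5 to 48.5% in untreated MIA PaCa-2 cells, while SHMT1-203 made up 9.01 to 10.6% and 22.5 to 24.7%. Most of the MTHFD2 estimate, from 54.7 to 62.7% in every library, was assigned to MTHFD2-205, a form annotated for nonsense-mediated decay. The rank of MTHFD2 in TPM, its ratio to MTHFD1 and the mitochondrial sums above include this form. SHMT2 also held SHMT2-226, annotated for nonsense-mediated decay, and SHMT2-213, a processed transcript. In untreated Pa-Tu-8902 cells their shares were 10.4 to 14.0% and 7.39 to 16.5%, and the ratio of SHMT2 to SHMT1 includes them. MTHFD1L shifted between forms in MIA PaCa-2 cells, where the share of MTHFD1L-212 was 36.4 to 40.1% without and 13.9 to 24.8% with dox and that of MTHFD1L-201 was 6.01 to 16.5% and 17.4 to 23.9%. In Pa-Tu-8902 cells the corresponding ranges overlapped, at 24.6 to 37.6% and 22.1 to 32.6% for MTHFD1L-212. These shares are estimates from short reads and were not tested.

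**Figure D4:**
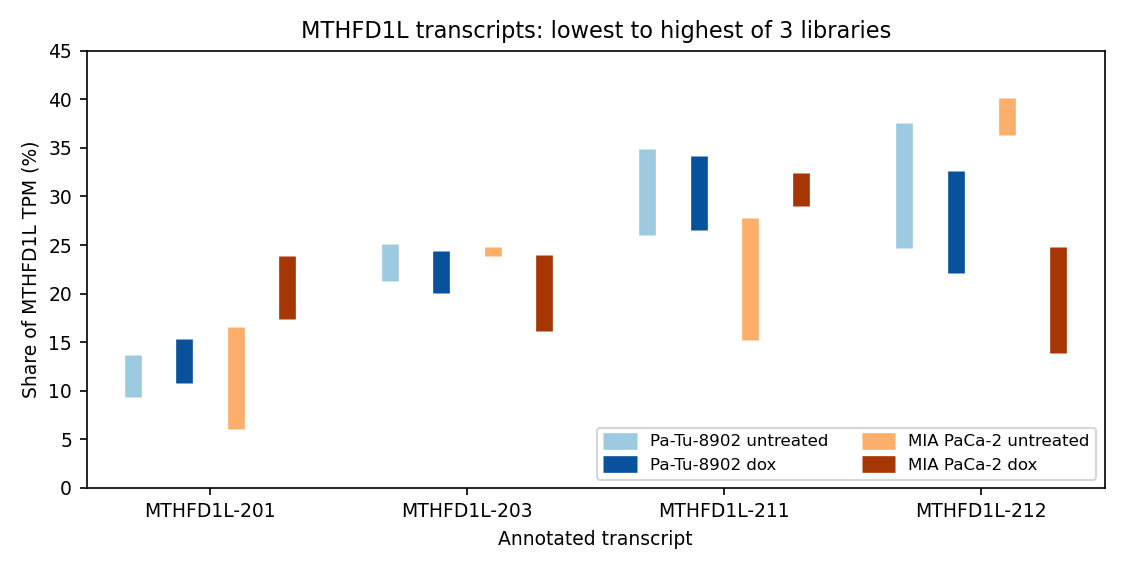
Share of MTHFD1L TPM, in percent, given to each of 4 annotated transcripts, as bars from the lowest to the highest of 3 libraries in each group. In MIA PaCa-2 cells the bar of MTHFD1L-212 runs from 36.4 to 40.1% without dox and from 13.9 to 24.8% with dox, and in Pa-Tu-8902 cells its bars overlap.

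The neighbouring reactions were described from fixed gene lists. Among other folate cycle genes, 0 of 12 tested rose and 4 fell in Pa-Tu-8902 cells, and 0 of 12 rose and 4 fell in MIA PaCa-2 cells by edgeR. DESeq2 gave the same numbers, and at an unadjusted p below 0.05 in edgeR 1 gene was higher in Pa-Tu-8902 cells and 2 were higher in MIA PaCa-2 cells. SLC25A32, which carries folate into mitochondria, fell by 0.97 ± 0.06 on the log2 scale in Pa-Tu-8902 cells (76.9 ± 3.85 to 39.1 ± 1.87 CPM, SD, n = 3), and its value in MIA PaCa-2 cells was -0.40 ± 0.07. TYMS, thymidylate synthase, fell by 0.70 ± 0.05 in Pa-Tu-8902 cells (122 ± 6.59 to 75.3 ± 1.95 CPM) and by 0.60 ± 0.07 in MIA PaCa-2 cells (440 ± 35.0 to 291 ± 10.7 CPM). MTFMT, which formylates the mitochondrial initiator tRNA, fell by 0.77 ± 0.09 and 0.70 ± 0.09, and MTHFD2L, the paralogue of MTHFD2, fell by 0.91 ± 0.10 in MIA PaCa-2 cells and by 0.74 ± 0.13 in Pa-Tu-8902 cells.

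GGH, a folate polyglutamate hydrolase, fell by 1.14 ± 0.10 in MIA PaCa-2 cells and had at most 0.0337 CPM in any Pa-Tu-8902 library.

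Glycine cleavage, which takes the glycine left by SHMT, had 0 of 7 genes higher and 2 lower in each line by edgeR, the same pair of genes in both. DESeq2 gave the same numbers, and 1 gene in each line was higher at an unadjusted p below 0.05. GLDC, its decarboxylase, fell by 2.71 ± 0.24 in Pa-Tu-8902 cells (3.05 ± 0.301 to 0.469 ± 0.126 CPM) and by 0.86 ± 0.10 in MIA PaCa-2 cells (11.0 ± 0.605 to 6.06 ± 0.418 CPM), and the responses differed by -1.85 ± 0.24 (adjusted p = 5.82e-06). DLD, a dihydrolipoamide dehydrogenase that is shared with other mitochondrial complexes, fell by 1.09 ± 0.05 and 1.12 ± 0.06, from 110 ± 3.30 to 51.3 ± 1.03 CPM and from 156 ± 7.43 to 71.5 ± 3.44 CPM.

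Of 15 serine and glycine transport or use genes tested in each line, 1 rose and 3 fell in Pa-Tu-8902 cells and 1 rose and 2 fell in MIA PaCa-2 cells. At an unadjusted p below 0.05, 4 were higher and 8 lower in each line. The neutral amino acid transporter SLC38A1 fell in both, by 0.89 ± 0.05 (471 ± 14.5 to 254 ± 5.40 CPM) and by 0.97 ± 0.07 (177 ± 13.1 to 90.0 ± 2.71 CPM). SLC1A5 fell by 0.64 ± 0.08 and SFXN2 by 0.92 ± 0.20 in Pa-Tu-8902 cells, with -0.38 ± 0.06 and -0.55 ± 0.13 in MIA PaCa-2 cells, not called. SLC1A4 fell by 0.90 ± 0.12 in MIA PaCa-2 cells and was at -0.41 ± 0.11 in Pa-Tu-8902 cells, not called. The risers were SDSL, a serine dehydratase-like enzyme, in Pa-Tu-8902 cells (0.93 ± 0.15) and SRR, serine racemase, in MIA PaCa-2 cells (0.67 ± 0.07). In the other line SDSL was at -0.02 ± 0.14 and SRR at 0.44 ± 0.08, not called. Of the genes named here, only SDSL was called for the difference between the lines (0.96 ± 0.21).

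The methionine and transsulfuration list had 1 of 7 genes higher and 0 lower in Pa-Tu-8902 cells, and 0 of 8 higher and 1 lower in MIA PaCa-2 cells. DESeq2 called 0 genes of it in MIA PaCa-2 cells, and at an unadjusted p below 0.05 in edgeR 3 genes were higher and 3 lower in Pa-Tu-8902 cells and 0 higher and 3 lower in MIA PaCa-2 cells. CTH, which makes cysteine from cystathionine, rose by 1.04 ± 0.21 in Pa-Tu-8902 cells from 1.27 ± 0.341 to 2.60 ± 0.0967 CPM. CBS, which condenses serine with homocysteine, fell by 0.59 ± 0.09 in MIA PaCa-2 cells from 43.3 ± 2.52 to 28.8 ± 2.99 CPM, and was at most 0.135 CPM in any Pa-Tu-8902 library. The CBS call was lost with DESeq2 size factors and with effective lengths in the fit, and the CTH call with effective lengths. MTAP, which recycles methylthioadenosine, was at 207 ± 1.98 CPM in untreated Pa-Tu-8902 and at most 0.185 CPM in any MIA PaCa-2 library.

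De novo purine synthesis, the main consumer of cytosolic formyl-folate, had 0 of 12 genes called in Pa-Tu-8902 cells (median log2 fold change -0.29), and 1 lower in MIA PaCa-2 cells (PRPS2, -0.60 ± 0.06), with a median of 0.05. Replication markers had 0 of 14 genes called in either line, with medians of -0.19 and 0.01. Of 8 glycolytic genes around 3-phosphoglycerate, 0 were called in Pa-Tu-8902 cells and ALDOC fell in MIA PaCa-2 cells (-1.32 ± 0.15), with medians of -0.26 and -0.27. Median values over all genes were 0.0014 and -0.0089. At an unadjusted p below 0.05, 1 purine gene was higher and 9 were lower in Pa-Tu-8902 cells, as were 1 and 9 replication markers and 0 and 6 glycolytic genes, and 5 replication markers were higher and 5 lower in MIA PaCa-2 cells. DESeq2 called 0 genes in the same lists and lines.

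ATF4 is a transcription factor known to drive several of the 9 genes, and a list of ATF4 and genes often induced with it was examined for that reason. Of 13 genes tested, 0 rose and 5 fell in Pa-Tu-8902 cells (median log2 fold change -0.40), and 1 rose and 4 fell in MIA PaCa-2 cells (median -0.49), and DESeq2 gave the same numbers with 1 gene higher at an unadjusted p below 0.05 in Pa-Tu-8902 cells. ASNS, asparagine synthetase, fell by 1.11 ± 0.06 in Pa-Tu-8902 cells (82.6 ± 4.95 to 38.1 ± 0.698 CPM) and was at -0.49 ± 0.06 in MIA PaCa-2 cells, within the fold limit. SLC7A11, the cystine transporter subunit xCT, fell by 0.73 ± 0.06 and by 1.45 ± 0.14, and TRIB3, a pseudokinase of the stress response, fell by 0.68 ± 0.10 and 0.63 ± 0.08.

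DDIT3 fell by 0.79 ± 0.09 in Pa-Tu-8902 cells and by 0.61 ± 0.14 in MIA PaCa-2 cells, where the call was lost with effective lengths and with limma on TPM. CHAC1, a glutathione-degrading enzyme, fell by 0.80 ± 0.12 in Pa-Tu-8902 cells and was at -0.40 ± 0.12 in MIA PaCa-2 cells, not called. GPT2, the mitochondrial alanine aminotransferase, fell by 0.87 ± 0.07 and SESN2 rose by 0.63 ± 0.07 in MIA PaCa-2 cells. Their values in Pa-Tu-8902 cells were -0.35 ± 0.06 and 0.29 ± 0.09, not called. ATF4 itself was at 299 ± 21.5 CPM without and 225 ± 13.5 CPM with dox in Pa-Tu-8902 cells (log2 fold change -0.41 ± 0.06, adjusted p = 1.73e-04) and at 202 ± 15.6 and 196 ± 5.43 CPM in MIA PaCa-2 cells (-0.04 ± 0.07). Of the list genes called, 16 in Pa-Tu-8902 cells and 17 in MIA PaCa-2 cells, 0 changed sign with DESeq2 size factors, with effective lengths or with limma on TPM, and limma called 11 and 10 of them.

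**Figure D5:**
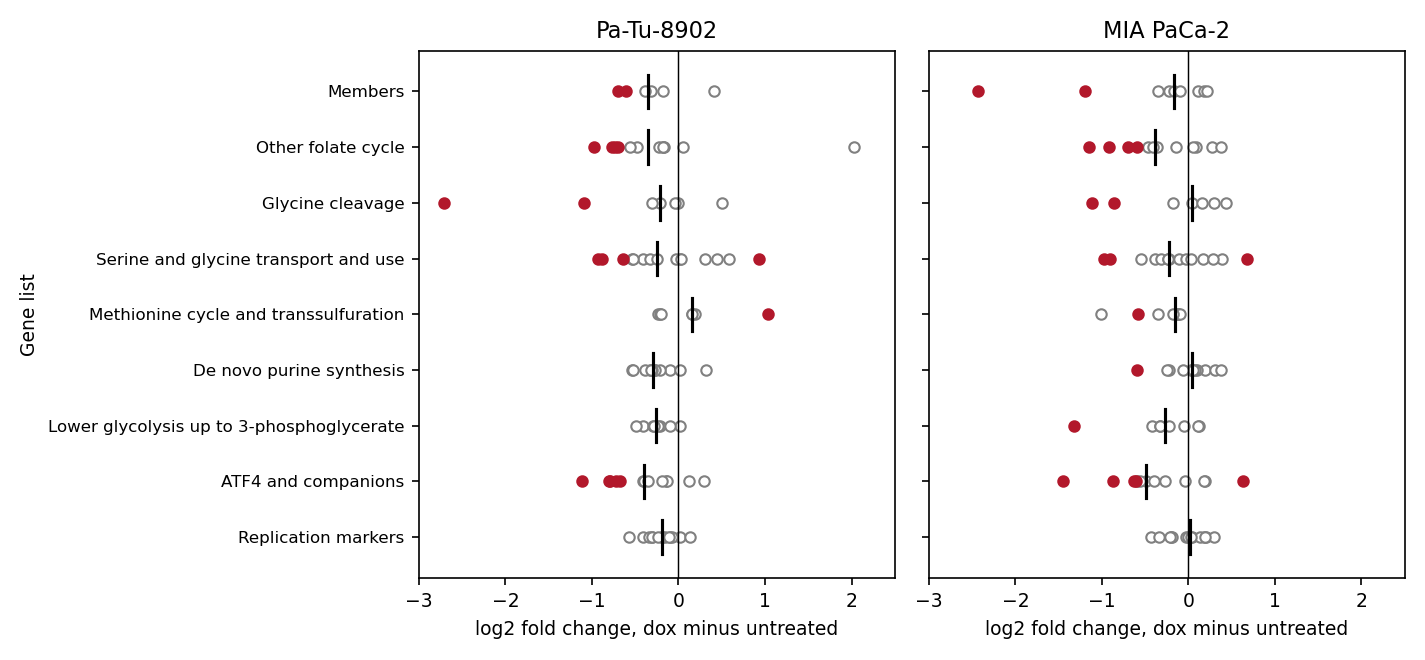
The log2 fold change with dox of every tested gene of the 9 enzymes and 8 lists in each line, filled red where called and with the median of each list as a vertical bar. Called genes lie to the left of 0 except SDSL and CTH in Pa-Tu-8902 cells and SRR and SESN2 in MIA PaCa-2 cells.

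Genes whose pattern was most like that of 3 of the enzymes were taken from 10966 genes by Pearson's r of log2 CPM over the 12 libraries, after each line's mean was subtracted, so that the points share their dox status and line. For PHGDH the 6 Pa-Tu-8902 points lie under the detection floor but entered the correlation. Its likeness therefore favours genes that moved little in Pa-Tu-8902 cells, and it is not read for that line. PHGDH was most like IQGAP2 (0.973), MATN2 (0.973) and FAM89B (0.969). SHMT2 was most like C11orf68 (0.987), ACOT9 (0.985) and IMP4 (0.982), and MTHFD2 was most like PNP (0.981), NUP88 (0.970) and SRXN1 (0.965). The 14 named pseudogene copies of the 9 genes had at most 2 counts in any library.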

How the data were processed

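Total RNA of 2 cell lines (12 libraries) was poly(A)-selected and made into directional libraries, which were sequenced as paired ends. The authors trimmed reads with Trimmomatic 0.39 and used RSEM 1.3.1 with STAR 2.5.2a on GRCh38 with GENCODE annotation, as given in the study's methods and the submitters' processing notes. The deposited expected counts per gene are RSEM estimates, 5.34% of which were not whole, and were rounded here. The deposited TPM values per gene and per transcript are RSEM's own and were used only for levels between genes, ratios and transcript shares. The deposited effective lengths entered 1 alternative fit.

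Samples were grouped by title. In R 4.3.3, edgeR 4.0.16 (robust quasi-likelihood test, TMM) was fitted to genes that reached 10 counts in 3 or more of the fitted libraries, separately for each comparison and with all 12 libraries for the difference between lines. A gene was called at a Benjamini-Hochberg adjusted p below 0.01 over all genes tested and a fold change of at least 1.5. DESeq2 1.42.0, limma 3.58.1 on log2(TPM + 1), other scalings, filters and thresholds, a replicate block and leaving out each library were alternatives. The fits were tested on simulated counts. Loci were matched on Ensembl identifiers to an annotation of the same assembly. The 9 genes, the lists and the tests were chosen with earlier results of these data known. Besides the 9 genes and GOT1, list genes called in either dox comparison were named, at most 4 with the smallest p per list and line, and so were the 3 genes most like PHGDH, SHMT2 and MTHFD2. CDH1, EPCAM, COL1A1, COL1A2, MTAP and ATF4 and the genes that share exons with members were named after their values were seen. A gene of the folate cycle list is not reported here.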

Additional observations from a re-analysis of the deposited data

Results flagged for a closer look

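Differences between the lines in the response to dox met the rule for a closer look in 2 of the 9 genes, by the interaction contrast of edgeR over all 12 libraries. For SHMT2 the response in Pa-Tu-8902 minus that in MIA PaCa-2 cells was -0.88 on the log2 scale, with all 3 dox-treated libraries below the untreated ones in Pa-Tu-8902 and all 3 above them in MIA PaCa-2 cells, in both CPM and TPM. For SHMT1 the same difference was 0.64, with the dox-treated libraries above the untreated ones in Pa-Tu-8902 cells. In MIA PaCa-2 cells they lay below them in CPM, and in TPM the groups overlapped (48.5 to 53.8 without and 39.9 to 53.0 TPM with dox).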

How the results depend on the processing

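Of 566 values of single genes under alternative settings, 538 kept their direction and their side of the thresholds. The number of the 9 genes called with dox in Pa-Tu-8902 cells was 2, and became 6 with no fold limit and 1 with effective lengths or limma on TPM, where MTHFD1L was lost at log2 fold changes of -0.54 and -0.46. Leaving out 1 library gave 1 to 2. In MIA PaCa-2 cells it was 2 and became 1 with at least 10 counts in every library, where ALDH1L2 was not tested, and 1 with limma on TPM, where ALDH1L2 was at -0.35 (adjusted p = 0.0188), and leaving out 1 library gave 2 throughout. Between the untreated lines it was 5 and became 8 with no fold limit and 2 with at least 10 counts in every library, which removes PHGDH, PSAT1 and ALDH1L2 by construction, and leaving out 1 library gave 5 throughout. For the difference between lines it was 2 and became 5 with no fold limit, 4 at an adjusted p below 0.05 and 4 with effective lengths, with 2 to 3 when 1 library was left out. The added calls were PHGDH and ALDH1L2 at the looser p, and PHGDH (5.11) and MTHFD1L (-0.59) with effective lengths, and the values of PHGDH and ALDH1L2 rest on Pa-Tu-8902 counts of at most 4. Directions reversed for MTHFD1L in MIA PaCa-2 cells with effective lengths (0.051) and limma on TPM (0.11), and for PSAT1 in the difference between lines with limma on TPM (0.21). The cause of these reversals was not tested. Over all genes, no fold limit gave 5768, 4043 and 2851 calls with dox in Pa-Tu-8902, with dox in MIA PaCa-2 and for the difference, in place of 2455, 1761 and 1732, and limma on TPM gave 1082 in MIA PaCa-2 cells.

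Replicate numbers are shared between groups, but residuals of same-numbered libraries correlated at -0.152 to 0.139, so the numbers were not taken to pair the libraries. With the replicate block the 9 genes gave 2, 2, 5 and 2 calls in the 4 comparisons, as without it, and all genes gave 2422, 1810, 8905 and 1645. With 3 libraries a group and 3 counts as the floor, changes of PHGDH, PSAT1 and ALDH1L2 in Pa-Tu-8902 cells were not detectable at this depth.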
